A study of Homo sapiens with 2 samples.

Results

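ARL2 is a small GTPase of the ARF-like family, and it is described here together with 9 genes that share its partners or its work on tubulin. The 10 genes are ARL2, its closest relative ARL3, the ARL2-binding effector ARL2BP, the tubulin folding cofactors TBCA, TBCB, TBCC, TBCD and TBCE, the beta-tubulin gene TUBB and the alpha-tubulin gene TUBA1B. They were chosen by name, with earlier results of these arrays known, ARL2 having one of the highest ratios on them. Every probe annotated to 1 of the 10 symbols was taken, which gave 12 probes of the 48701 on the array. TBCD and TUBB had 2 probes each and the other 8 genes had 1 each. All 12 were named by their current symbol, so no older alias such as CKAP1 for TBCB was needed, and all 12 annotated transcripts belong to the gene of that name in RefSeq.

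The cells were MDA-MB-231, an established and highly invasive human breast cancer line, and transcripts were read on Illumina HumanWG-6 beadchips, which carry short probes in 1 colour. One culture received an siRNA at 20 nM against NSD3L, which is the long form of NSD3, a histone methyltransferase, and the other received a non-targeting control siRNA whose concentration the labels do not give. Both were transfected 2 times with the same reagent, 48 h apart, and harvested for RNA after a further 48 h, so both groups carry an siRNA and both are this 1 line. There was 1 array per group, so the values carry no error between cultures, no test was possible, and culture, RNA extract, array and siRNA cannot be told apart.

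Alpha- and beta-tubulin become the building block of microtubules through a folding relay. The chaperonin CCT, fed by prefoldin, folds the new chains. The cofactors then take over: TBCB and TBCE handle alpha-tubulin, TBCA and TBCD handle beta-tubulin, and TBCC joins the complex of both and triggers GTP hydrolysis that lets the finished dimer go. ARL2 binds TBCD and takes part in this assembly. ARL2 and ARL3 also share partners: in their GTP-bound form they release lipid-modified cargo from carrier proteins, and ARL2BP binds both. Tubulin is abundant in dividing cells, and cells adjust tubulin mRNA to the pool of unassembled tubulin.

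The promoters of ARL2 and of ARL3 are shown because these paralogs gave the highest and the lowest ratio among the 10 genes. Each sequence runs 5′ to 3′ from 250 bases before to 50 after the gene start, taken from RefSeq on GRCh38.p14. The ARL2 window lies on the plus strand at chr11:65013910-65014209, and the ARL3 window on the minus strand at chr10:102714348-102714647. Capitals mark the E-box CACGTG, the letters CCAAT and the GC box GGGCGG, each searched on both strands.
ARL2: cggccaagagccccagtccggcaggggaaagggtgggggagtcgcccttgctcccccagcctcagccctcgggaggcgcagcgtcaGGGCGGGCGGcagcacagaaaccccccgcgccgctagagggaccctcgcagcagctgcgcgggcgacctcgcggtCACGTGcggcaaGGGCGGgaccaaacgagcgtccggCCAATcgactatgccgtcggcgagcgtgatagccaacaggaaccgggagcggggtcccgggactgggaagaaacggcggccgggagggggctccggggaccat
ARL3: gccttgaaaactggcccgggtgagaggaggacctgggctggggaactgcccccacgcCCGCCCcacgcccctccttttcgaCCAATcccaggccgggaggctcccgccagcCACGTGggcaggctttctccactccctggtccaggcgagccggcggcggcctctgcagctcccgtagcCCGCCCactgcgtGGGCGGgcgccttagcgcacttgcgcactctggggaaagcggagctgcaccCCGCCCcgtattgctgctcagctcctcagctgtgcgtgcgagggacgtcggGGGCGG

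Both windows held 1 E-box and 1 CCAAT, with 3 GC boxes in ARL2 and 5 in ARL3, counting overlapping copies of a motif, and no base lay in motifs of different kinds. Among all 35116 promoter windows of that length in the table, 7.26% held the E-box, 34.6% CCAAT and 44.95% the GC box. The GC content was 72.7% for ARL2 and 71.7% for ARL3, against a median of 58.7% over all windows. Of the 10 genes, 9 had a promoter window in the table. An E-box also lay in a window of TUBB and in a window of TBCB. CCAAT also lay in windows of TBCE, TUBB, TBCC and TBCB, so neither motif was particular to ARL2 and ARL3. The arrays do not read promoters, and these matches only describe the letters.

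For each probe the deposited intensities were compared as a log2 ratio, NSD3L siRNA over control siRNA, so 1 stands for 2-fold higher with the NSD3L siRNA. A probe was taken as measured when it lay above the upper edge of the background on both arrays, at 40.9 on the array of NSD3L siRNA cells and at 41.0 on that of control cells. All 12 probes passed. Across the 16492 probes that did so the median log2 ratio was 0.01, with an SD of 0.29. By their brightest probe, 10538 genes were measured, and their median log2 ratio was 0.00. As a description of spread, each ratio is set beside the SD over similarly bright probes, sorted by brightness into 10 groups of equal size. That SD mixes noise with real differences between genes and is no replicate error. The brightest group, which holds ARL2 and most of the 12 probes, is wide. Its mean intensities run from 636 to 16937, and its SD was 0.34, against 0.40 in the next group. The 3 NSD3 probes read near the background on both arrays. They read from 37.6 to 41.6 with the NSD3L siRNA and from 41.9 to 55.3 with the control, so depletion of the long isoform was not established. The probe at 55.3 is annotated to a different transcript from the other NSD3 probes. Its log2 ratio was -0.44, against -0.16 and -0.11 for those. It read 40.8 under NSD3L siRNA, below the floor, and only the probe at -0.11 passed the floor on both arrays. Which isoform each probe reads was not tested, so the -0.44 is not read as a fall of the long form. The vimentin gene VIM read 9129 under NSD3L siRNA and 8758 under control siRNA, and the adhesion receptor gene CD44 read 3238 under NSD3L siRNA and 3437 under control siRNA, both markers of this mesenchymal-type line. The mesenchymal marker FN1 lay below the floor on both arrays. So did the estrogen receptor gene ESR1 of luminal cells and the leukocyte gene PTPRC, whereas the luminal markers KRT19 and XBP1 and the macrophage marker CD68 were well above it, KRT19 at 733 under NSD3L siRNA and 561 under control siRNA, XBP1 at 498 under NSD3L siRNA and 470 under control siRNA and CD68 at 1195 under NSD3L siRNA and 1179 under control siRNA. Of the luminal, fibroblast and blood markers listed, 5 of 10, 1 of 8 and 4 of 8 with a probe were measured.

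ARL2 was the 1 gene of the 10 whose level differed more than 2-fold. Its probe (ILMN_1787879, transcript NM_001667) read 1782 on the NSD3L siRNA array and 581 on the control array. The gap of 1201 intensity units makes ARL2 3.07-fold higher with the NSD3L siRNA, a log2 ratio of 1.62. Among the 1650 probes of similar brightness, where the SD of the log2 ratio was 0.34, none had a higher ratio and 1 had a larger change in either direction. Over all 10538 measured genes the ratio ranked 2, between KCTD20 at 1.64 and ZNF395 at 1.57. In the same comparison 0.949% of genes differed more than 2-fold in either direction and 0.342%, 36 genes, were more than 2-fold higher. ARL2 was among the genes chosen for this difference, so nothing is read from its share. A single named probe reads ARL2, so no further probe bears on the value, and probes without a name were not searched for it. RefSeq places the gene at 65014160 to 65022184 on chromosome 11 and lists a further curated transcript, NM_001199745. Which transcripts the probe reads was not tested, because its sequence was not used here.

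**Figure D1:**
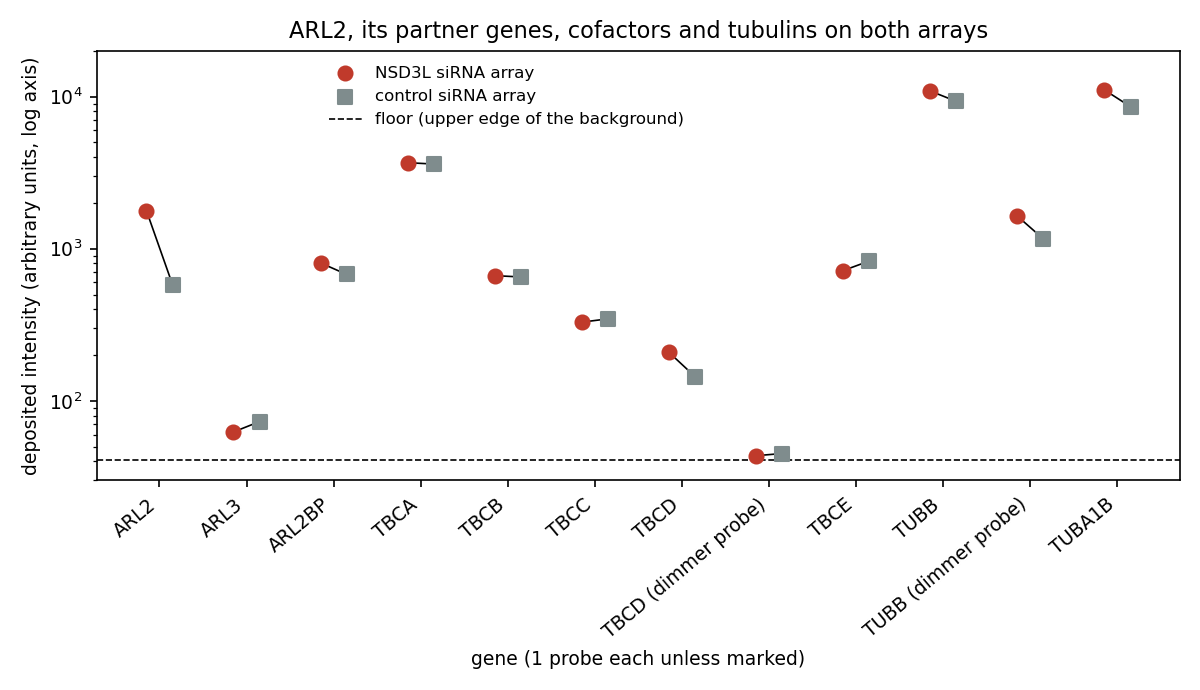
Deposited intensity (log axis, arbitrary units) of the 12 probes on the NSD3L siRNA array (circles, left) and the control siRNA array (squares, right), 1 array each, with the background floor dashed. ARL2 reads 1782 on the NSD3L siRNA array and 581 on the control array, while the lines of TBCA and TBCB are nearly flat.

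ARL3, the paralog that shares effectors with ARL2 and works in cilia, was dim and went the other way. Its probe read 62.5 under NSD3L siRNA and 73.1 under control siRNA, a log2 ratio of -0.23, which lies within the SD of 0.28 among probes of similar brightness. Such a dim reading is in large part background, and its ratio is pulled toward 0. With the most frequent intensity of each array subtracted, the log2 ratio of ARL3 was -0.47. ARL2 and ARL3 thus had opposite signs, and 36.4% of probes as bright as ARL3 differed by more than it did.

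ARL2BP, the effector that binds GTP-loaded ARL2 and ARL3, read 807 under NSD3L siRNA and 677.5 under control siRNA. It was 1.19-fold higher, with a log2 ratio of 0.25 that is smaller than the SD of 0.34 among probes of similar brightness. Its ratio ranked 1896 among the measured genes.

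The 5 cofactors showed no common shift. TBCD, the large cofactor that binds beta-tubulin and ARL2, differed most among them. Its brighter probe (ILMN_1795400) read 208 under NSD3L siRNA and 144 under control siRNA, 1.44-fold higher with a log2 ratio of 0.53, beyond the SD of 0.40 among similar probes. Of those similar probes, 16.6% differed by more. The other TBCD probe (ILMN_1673376) read 43.6 under NSD3L siRNA and 45.1 under control siRNA, a log2 ratio of -0.05. That probe sits just above the floor, where it could hardly show a difference, and the mean over both was 0.24. The higher value of TBCD therefore rests on 1 of its 2 probes.

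TBCA, which holds beta-tubulin after CCT releases it, read 3676 under NSD3L siRNA and 3601 under control siRNA, a log2 ratio of 0.03. TBCB, which carries alpha-tubulin, read 665 under NSD3L siRNA and 652 under control siRNA, also 0.03. These readings differed by 2.08% and 1.99%, and 89.9% and 90.6% of similarly bright probes differed by more. TBCC, the cofactor that triggers release of the dimer, read 329 under NSD3L siRNA and 346 under control siRNA, a log2 ratio of -0.07. TBCE, the alpha-tubulin cofactor, read 718 under NSD3L siRNA and 830 under control siRNA, a log2 ratio of -0.21, within the SD of 0.34. Among the cofactors, 3 were thus higher and 2 lower, and the median log2 ratio was 0.03.

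**Figure D2:**
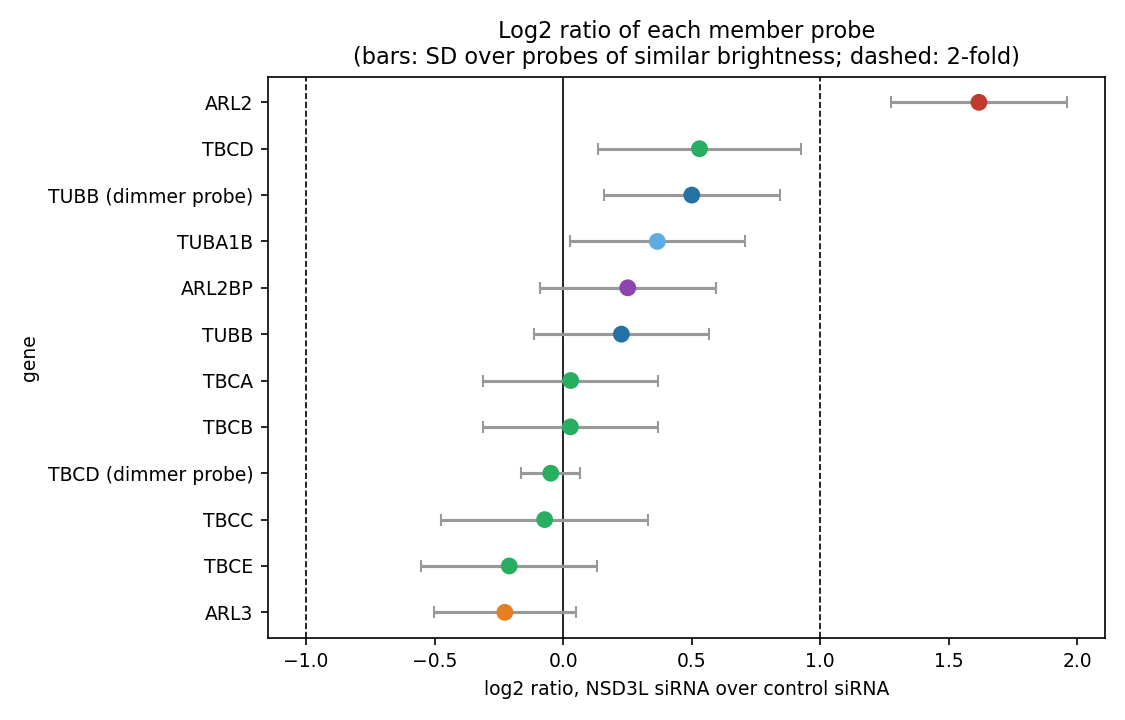
Log2 ratio of NSD3L siRNA over control siRNA for each of the 12 probes (points), with bars of 1 SD over probes of similar brightness, which is not a replicate error, and dashed lines at 2-fold. ARL2 at 1.62 stands past the line, and the other 11 probes lie between -0.23 and 0.53.

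The tubulin genes themselves were modestly higher with the NSD3L siRNA. TUBA1B, a main alpha-tubulin gene of dividing cells, read 11056 under NSD3L siRNA and 8575 under control siRNA, a log2 ratio of 0.37. TUBB, its beta counterpart, read 10876 under NSD3L siRNA and 9295 under control siRNA on its brighter probe (ILMN_1704750), a log2 ratio of 0.23. The dimmer TUBB probe (ILMN_1665583) read 1638 under NSD3L siRNA and 1158 under control siRNA, a log2 ratio of 0.50. Both TUBB probes pointed the same way, and 2 of the 3 tubulin probes exceeded the SD of 0.34 for their brightness. Of similarly bright probes, 23.0% differed by more than TUBA1B did. For the brighter and the dimmer TUBB probe that share was 43.4% and 12.5%. Tubulin genes are near-identical in long stretches, and the specificity of the probes for single copies was not tested.

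Of the 10 genes, 7 had a log2 ratio above 0 and 3 below, with a median of 0.13, while 49.3% of all measured genes lay above 0 and 50.6% below. Without ARL2 the median of the other 9 was 0.03, and none of them passed 1.5-fold in either direction. Among all measured genes 7.70% did, a share at which few of 9 genes would, so nothing is read from that count. The ratios of the 9 ran from -0.23 to 0.53, with an SD of 0.26 between genes, against 0.33 over all measured genes.

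**Figure D3:**
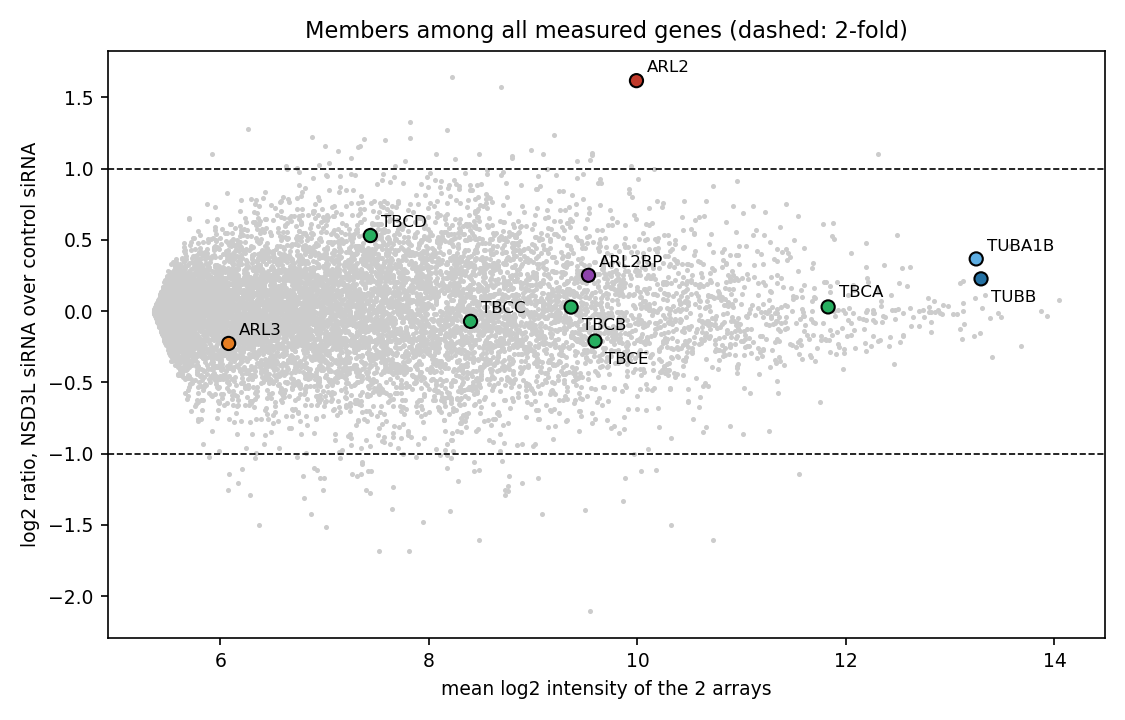
Log2 ratio against mean log2 intensity for all 10538 measured genes (grey) and the 10 genes named (coloured), by the brightest probe of each gene, with dashed lines at 2-fold. ARL2 lies at the upper edge of the cloud and the other 9 within it.

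The rest of the folding pathway was compared through lists of genes drawn up with earlier results of these arrays known. None of the listed genes outside the 10 reached 2-fold. Since 0.949% of all measured genes did, lists of this size would hold few, and nothing is read from that count. Among the other alpha- and beta-tubulins, 10 of 13 genes with a probe were measured, 7 with a ratio above 0 and 3 below, with a median log2 ratio of 0.07. The highest was TUBB4B, a broadly used beta-tubulin, at 1816 under NSD3L siRNA and 1065 under control siRNA, a log2 ratio of 0.77. The alpha-tubulin genes TUBA1A and TUBA1C followed at 0.67 and 0.54, reading 3745 under NSD3L siRNA and 2354 under control siRNA, and 6927 under NSD3L siRNA and 4775 under control siRNA. TUBB2B was the lowest at -0.32, reading 64.4 under NSD3L siRNA and 80.4 under control siRNA. The neuronal beta-tubulin gene TUBB3 had -0.25.

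The tubulins were also divided by brightness, after the values were seen. The 5 that read over 1000 on both arrays, TUBA1A, TUBA1C, TUBB2A, TUBB4B and TUBB6, all had ratios above 0, with a median of 0.54 and a range from 0.03 to 0.77. The 5 dimmer ones ran from -0.32 to 0.25, that of TUBB8, so the ranges overlap, and nothing is read from a division made this way. TUBB2A and TUBB6 stood at the low end with 0.11 and 0.03 on their brightest probes, while their dimmer probes gave 0.34 and 0.56. For both, as for TUBB, the dimmer probe thus gave the higher ratio. With probes averaged per gene, the median of the tubulin list was 0.24 in place of 0.07.

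The chaperones that act before the cofactors went both ways, with more of them lower than higher. Of 16 measured genes of CCT, prefoldin and their helpers, 4 had ratios above 0 and 12 below, with a median log2 ratio of -0.11, while 50.6% of all measured genes lay below 0. The prefoldin subunit gene PFDN4 read 93.1 under NSD3L siRNA and 147 under control siRNA, a log2 ratio of -0.66, and VBP1, another prefoldin subunit gene, had -0.30. Among 6 prefoldin subunits 5 were lower, while the 7 measured CCT subunits split into 3 higher and 4 lower. CCT5 was lowest at -0.50, reading 114 under NSD3L siRNA and 161 under control siRNA, and CCT4 highest at 0.29 by brightest probes. CCT7 had 0.21 on its brighter probe and 0.45 on the other.

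Of the other effectors and regulators of ARL2 and ARL3 and the relatives of the cofactors, 8 of 10 genes with a probe were measured. Here 3 were higher and 5 lower, and their median log2 ratio was -0.08. RP2, a TBCC-like protein that makes ARL3 hydrolyse GTP, read 141 under NSD3L siRNA and 234 under control siRNA, a log2 ratio of -0.74 and the largest difference of this list. CFAP36, which binds ARL3, had -0.40. Of the carriers of lipid-modified cargo that ARL2 and ARL3 unload, UNC119 had 0.31, reading 92.7 under NSD3L siRNA and 74.7 under control siRNA, PDE6D had 0.26, and UNC119B, just above the floor, had -0.04. With the mode of each array subtracted the median of this list was -0.20.

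Only 3 of 18 other ARF-like GTPases listed were measured, because 12 had no named probe and 3 were below the floor. The ciliary GTPase gene ARL6 had a log2 ratio of -0.46, ARL16 of 0.23 and the Golgi GTPase gene ARL1 of -0.05. These are too few to set ARL2 against its family.

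Genes of the gamma-tubulin ring complex and the rare tubulins went both ways around a median of -0.06. Of 10 measured genes 4 were higher and 6 lower, the rare tubulin genes TUBD1 and TUBE1 among the lower. TUBG1, the gamma-tubulin that templates microtubules, was the highest of them at 1468 under NSD3L siRNA and 1012 under control siRNA. Its 3 measured probes gave log2 ratios of 0.54, 0.58 and 0.56. TUBGCP2, a gamma-tubulin complex subunit gene, had 0.37, while MZT1, a small adaptor of the complex, had -0.40 and NEDD1, which recruits it, -0.24. Genes of tubulin modification and autoregulation had a median of 0.04, with 7 of 13 higher. They held the tubulin ligase relatives TTLL12 at 0.85, or 197 under NSD3L siRNA and 110 under control siRNA, TTLL5 at 0.52 and TTLL7 at -0.34 on its brighter probe and 0.10 on the other, and the deglutamylase gene AGTPBP1 at -0.30. TTC5, which directs the decay of tubulin mRNA, read 151 under NSD3L siRNA and 167 under control siRNA.

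**Figure D4:**
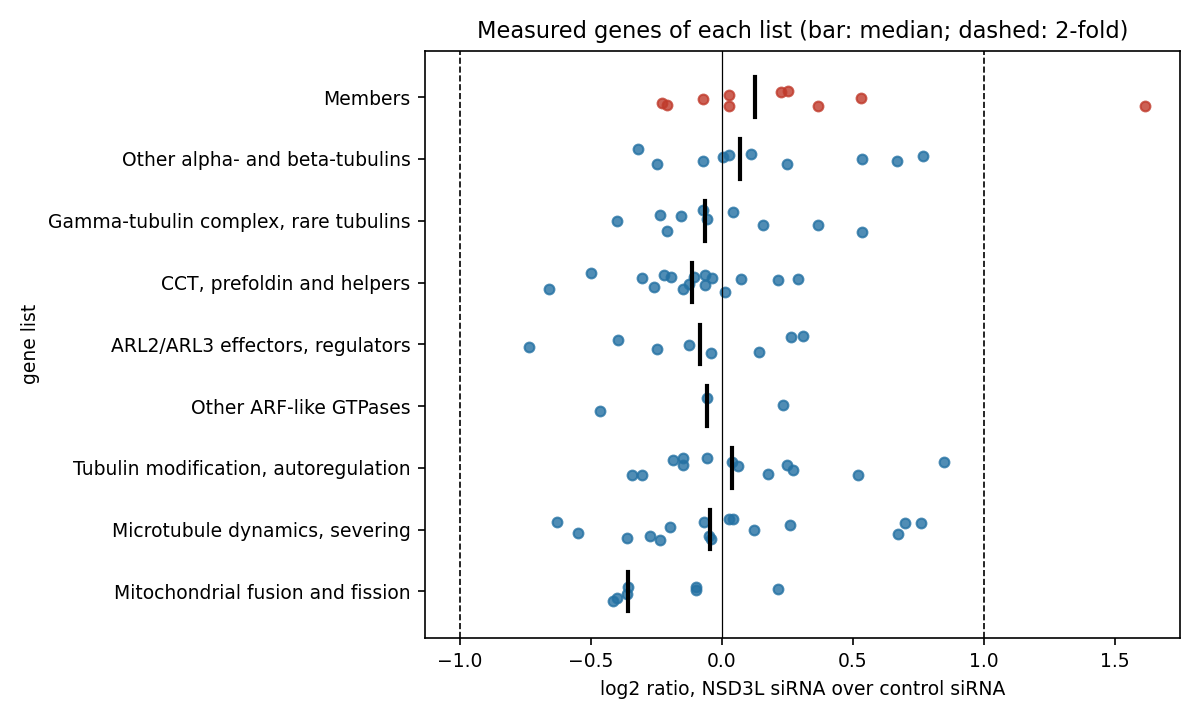
Log2 ratio of each measured gene (points, brightest probe) in the 10 genes described and in 8 related lists, with the median of each list as a bar and dashed lines at 2-fold. ARL2 at 1.62 is the only point past 2-fold, and the list medians lie between -0.36 and 0.13.

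ARL2 sits in a gene-dense stretch of chromosome 11, and its neighbours were read as well. Within 500 kb of its midpoint lie 35 other protein-coding genes, against a median of 11 for measured genes, and in the densest group of genes the median log2 ratio was 0.12. Over all measured genes, 49.3% lay above 0 and 7.70% were past 1.5-fold in either direction. Of the 16 protein-coding neighbours within 100 kb, 12 were measured, and 11 of these had a ratio above 0, with a median of 0.19. None of the 12 was past 1.5-fold, as few of 12 genes would be at that share. The highest were CDCA5, which encodes sororin of the cohesin complex, at 763 under NSD3L siRNA and 514 under control siRNA, a log2 ratio of 0.57, and VPS51, of endosomal tethering, also at 0.57. SAC3D1 had 0.43 and SNX15, a sorting nexin gene next to ARL2, 0.27, at 574 under NSD3L siRNA and 476 under control siRNA. FAU, encoding a ribosomal protein, was the 1 measured neighbour on the other side, at -0.09. The remaining measured neighbours were ATG2A, PPP2R5B, GPHA2, ZFPL1, TM7SF2, ZNHIT2 and MRPL49, at 0.27, 0.09, 0.03, 0.15, 0.02, 0.23 and 0.14. BATF2, MAJIN, NAALADL1 and CATSPERH were not above the floor on both arrays. With the trend of log2 ratio on gene density removed, ARL2 had 1.49. That correction moved TBCB to -0.11, TUBB to 0.11, TUBA1B to 0.26, TBCC to -0.15 and TBCA to 0.15, so the small ratios of these genes depend on it.

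**Figure D5:**
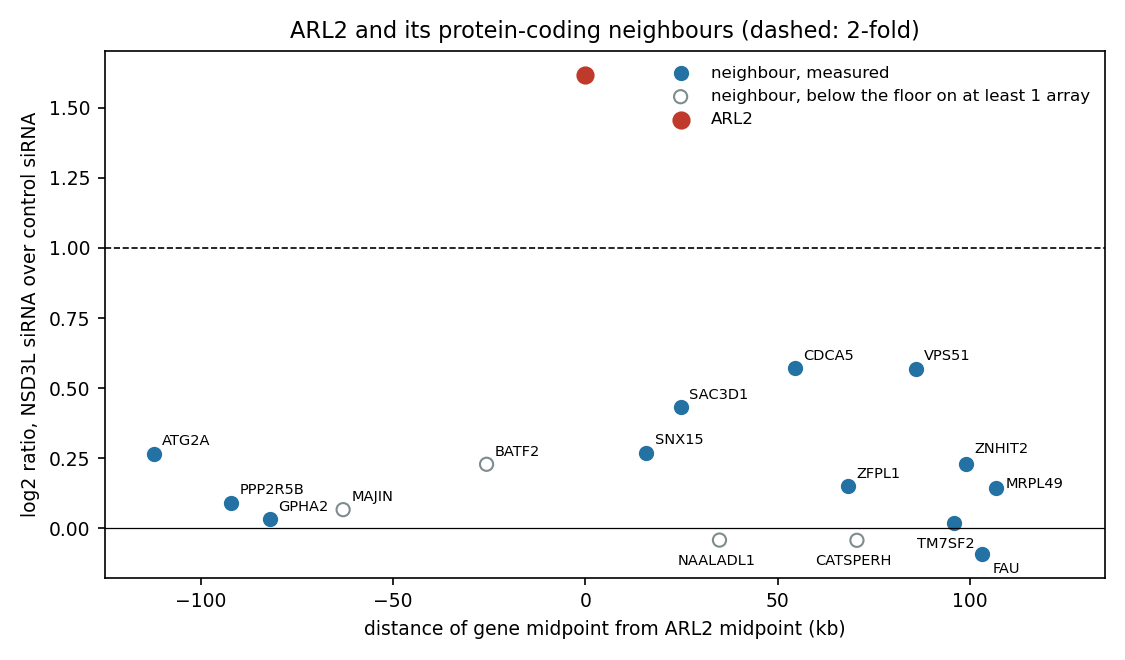
Log2 ratio of ARL2 (red) and its 16 protein-coding neighbours within 100 kb (blue where measured, open where below the floor on at least 1 array) by distance between gene midpoints in kb. The measured neighbours reach 0.57, and ARL2 stands at 1.62.

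The genes nearest to ARL2 in their readings were sought by the distance between log2 intensities over the 2 arrays. They were TRAM2, at a distance of 0.43 on the log2 scale, DYNC1LI2 at 0.49, AP1M1 at 0.50, SSRP1 at 0.55 and NSA2 at 0.57. TRAM2 read 1395 under NSD3L siRNA and 689 under control siRNA, and its log2 ratio was 1.02. The other 4 had log2 ratios from 0.83, that of NSA2, upward, all below that of TRAM2 and of ARL2. With only 2 arrays, this likeness is one of level and ratio and no more.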

How the data were processed

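One array each was made of MDA-MB-231 cells given the NSD3L siRNA or the control siRNA. The authors' deposited values are linear intensities for 48701 probes. The submitters' processing notes name BeadStudio without a version, and how background and normalization were handled is not given there. The sorted values of the arrays differed by at most 0.025 on the log2 scale at any rank, the pattern left by quantile normalization, and log2 differences between conditions are read relative to that. Version 3.0 of the array is named by the series, and the probe annotation carries no version, so whether they are the same was not established. The annotation gave 1 symbol for 23687 probes, several for 35 and none for 24979. Symbols were updated through the gene number for 23651 probes with RefSeq (GRCh38.p14).

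From the deposited intensities, log2 ratios were computed with no offset, in Python 3.11.15 with pandas 2.3.3, scipy 1.17.1 and statsmodels 0.14.6. The floor was 2 times the mode less the 1st percentile of each array, the mode being the peak of a kernel density of values below the 75th percentile. A gene took its brightest probe and was measured if that probe passed the floor on both arrays. The ratio computation was tested on simulated data. The genes, lists and settings were chosen with earlier results of these data known. Named were all probes of the 10 genes, up to 4 genes with the largest change per list, measured neighbours of ARL2, and the 5 nearest genes. TUBB2A, TUBB3, TUBB6 and TTC5 were picked outside that rule with their values known, as were KCTD20, ZNF395 and UNC119B, TUBB8, CCT7 and the markers VIM, CD44, FN1, ESR1, KRT19, XBP1, CD68 and PTPRC named from their lists. The number of arrays limits the precision.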

Additional observations from a re-analysis of the deposited data

How the results depend on the processing

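Other settings, 10 in all, were run on each ratio and each list median: median centring, quantile normalization, a lowess correction for intensity (span 0.3), an offset of 16, subtraction of each array's mode, floors at the median and at the 75th percentile, no floor, the mean over probes, and removal of the trend with gene density. The log2 ratio of ARL2 stayed between 1.49 and 1.68, and ARL2 remained the 1 gene of the 10 past 2-fold in all of them. With the deposited ratios it was also the 1 gene past thresholds of 1.5-fold and 3-fold. With the mode subtracted, TBCD at 0.67 passed 1.5-fold as well. Of these settings, the 3 floors and the mean over probes could not move ARL2, a bright gene with 1 probe, and quantile normalization and median centring hardly could, because the arrays already shared their distribution. The range thus comes from lowess, the offset, the subtracted mode and the density trend. Smaller ratios shifted more relative to their size: ARL3 ran from -0.47 with the mode subtracted to -0.18 with the offset, TBCD from 0.24 with the mean over probes to 0.67 with the mode subtracted, TUBB from 0.11 with the density trend removed to 0.36 with the mean over probes, and TBCE from -0.22 with the mode subtracted to -0.12 with the density trend removed. TBCB changed sign, to -0.11, with the density trend removed, which gave 6 of the 10 genes above 0 and 4 below. A pair of list medians near 0 changed sign. That of the other ARF-like GTPases was 0.03 with the density trend removed, -0.12 with no floor and -0.23 with the median as floor, against -0.05 over 3 genes as deposited, and that of tubulin modification was -0.04 with the 75th percentile as floor, -0.04 with no floor and 0.00 with the density trend removed. The median of the other tubulins was 0.24 with the mean over probes and 0.03 with no floor, that of the effectors -0.20 with the mode subtracted and -0.18 with the 75th percentile as floor, and that of microtubule dynamics -0.02 with the mean over probes or the density trend removed. The median of all measured genes was -0.0072 with the mode subtracted, -0.0088 with no floor, 0 with the 75th percentile as floor and 0.00097 with the density trend removed. No paired analysis was possible because each group had 1 array. Low signal over the background limits ARL3 and, still more, the dimmer TBCD probe, which sits just above the floor.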

Other observations

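ARL2 is also found in mitochondria, and genes of mitochondrial fusion and fission were listed together with a carrier gene linked to ARL2, SLC25A4. All 7 listed genes were measured. The 6 genes of fusion and fission had ratios below 0 and SLC25A4 had 1 above, while 50.6% of all measured genes lay below 0. The median log2 ratio of the 7 genes was -0.36. None was past 1.5-fold, as few of 7 genes would be at the share of 7.70% over all measured genes. The fission GTPase gene DNM1L read 190 under NSD3L siRNA and 254 under control siRNA, a log2 ratio of -0.42. The fusion GTPase genes MFN1 and OPA1 had -0.40 and -0.36, and MFF, the receptor of the fission GTPase, had -0.36. The other lower genes, MFN2 and FIS1, had only -0.10 each. OPA1 and MFF lay within the SD among probes of similar brightness, 0.37 and 0.40. DNM1L and MFN1 were slightly beyond theirs, 0.40 and 0.37. A dimmer MFN1 probe lay below the floor on both arrays. SLC25A4, the adenine nucleotide carrier linked to ARL2, read 455 under NSD3L siRNA and 392 under control siRNA and had 0.22. With the density trend removed, the median of the list was -0.24. SLC25A4, MFN2 and FIS1 were named after their values were seen.

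Regulators of microtubule dynamics went both ways, with 7 of 16 measured genes above 0 and 9 below and a median log2 ratio of -0.04. MAP1B, a microtubule-associated protein gene, read 252 under NSD3L siRNA and 149 under control siRNA, a log2 ratio of 0.76. MAP1S had 0.70 and the mitotic depolymerase gene KIF2C 0.67. SPAST, encoding the severing enzyme spastin, read 98.5 under NSD3L siRNA and 152 under control siRNA, a log2 ratio of -0.63. In this list 4 of 16 measured genes were past 1.5-fold, beside 7.70% of all measured genes, and none was past 2-fold. That percent includes dim genes. The SD of the log2 ratio was 0.06 in the dimmest group of probes, against 0.37 to 0.40 in the groups of these 4. The list was drawn up with earlier results known, so nothing is read from the count.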
